A study of Mus musculus with 2 samples.

Results

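The genes described are 10 splicing regulators of skeletal muscle: Mbnl1, Mbnl2, Mbnl3, Celf1, Celf2, Rbm20, Rbm24, Rbfox1, Rbfox2 and Ptbp1. They were chosen by name, with earlier results of these data known but with no threshold on their values, and all 10 had a row among the 55536 genes of the gene tables and rows for their transcripts, 131 in all. The muscle was gastrocnemius, from the calf, of female B6CASTF1/J mice aged 36 days, which are first-generation hybrids of a laboratory and a castaneus strain, and total RNA was sequenced. One group of 2 libraries, replicate 2 and replicate 1, was made from 300 ng of RNA per library with synthetic spike-in RNAs added. The labels call the samples biological replicates but do not state that separate animals were used, and the spread between the samples may be partly technical. No other condition exists, so the regulators are compared with each other, across the 2 libraries and across 2 quantifications of their transcripts, with no p-value.

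Skeletal muscle switches many exons after birth, and a small set of RNA-binding proteins is known for much of that work. Muscleblind proteins (Mbnl) promote adult exon choices and are trapped by expanded repeat RNA in myotonic dystrophy, while Celf proteins favour many fetal choices at the same exons. Rbfox proteins bind UGCAUG next to exons, Rbm20 represses exons of titin, Rbm24 promotes the use of muscle exons, and Ptbp1 is a general repressor that declines as muscle cells differentiate. Several of these regulators also affect the splicing of their own transcripts, so both the level of each gene and the make-up of its transcripts bear on its output.

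The gene tables held 40656175 expected counts in replicate 2 and 37735687 in replicate 1, where an expected count is a read count shared out by estimation. Gastrocnemius is labelled as the tissue, and genes of muscle fibres were abundant: 6 muscle fibre markers summed to 85113 TPM in replicate 2 and 116260 in replicate 1, where TPM is a relative abundance corrected for transcript length. The libraries stood apart in other lists. Slow-fibre markers summed to 2612 TPM in replicate 2 and 15.1 in replicate 1, red blood cell markers to 425 and 2445 TPM, fat cell markers to 6.46 and 59.6 TPM, and Schwann cell markers to 22.2 and 90.0 TPM in the same order. Neuron markers were near absent, with 0 of 7 detected and sums of 0.14 TPM in replicate 2 and 0.16 in replicate 1. In bulk tissue, fewer cells of a type and less RNA per cell cannot be told apart.

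Mbnl1 was the most abundant of the regulators and Mbnl3 the least. A gene was called detected at 1 TPM or more in both libraries. At that threshold 9 of the 10 regulators were detected, and Mbnl3 was not. By mean TPM the order was Mbnl1, Mbnl2, Rbfox1, Rbm24, Celf2, Rbm20, Rbfox2, Celf1, Ptbp1 and Mbnl3. Celf2 and Rbm20 were the only neighbours in this order whose values overlapped between libraries. For Rbfox1 and Rbm24 the values did not overlap, but their means were closer than the SD of Rbfox1. Mbnl1 lay at the 97.2 percentile and Ptbp1 at the 48.7 percentile of the 10828 genes detected in both libraries.

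The same order was found in the reads-based table, in which transcripts were quantified directly from reads and not from alignments. There Rbfox1 overlapped both Mbnl2 and Rbm24: Mbnl2 had 138 TPM in replicate 2 and 162 in replicate 1, Rbfox1 had 114 and 153 TPM, and Rbm24 had 96.3 and 135 TPM. The reads-based mean was above the alignment-based mean for all 10 regulators, by 1.19-fold for Rbm20 up to 1.92-fold for Mbnl1 among the 9 detected. Both tables describe the same libraries, so these folds between tables are no difference in amount. Each table is scaled to a fixed total over its own rows, but the folds differ by gene. TPM ratios between regulators therefore differ between the tables. In replicate 2 Mbnl1 had 20069 counts by alignment and 21545 reads-based, and Rbm20 had 3497 and 3803. The cause of the folds was not tested.

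**Figure D1:**
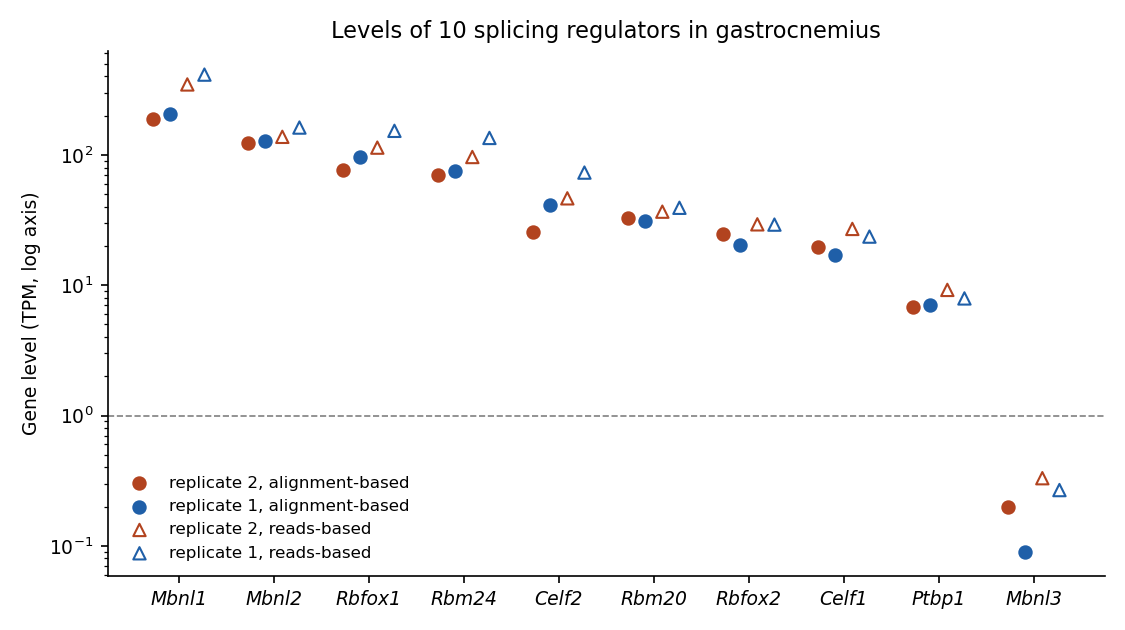
Gene level in TPM on a log axis for the 10 regulators, ordered by mean alignment-based TPM. Filled circles are the alignment-based gene tables, open triangles the reads-based tables, orange replicate 2 and blue replicate 1, and the dashed line marks 1 TPM. Mbnl1 is highest at 188 and 207 TPM, and Mbnl3 alone lies under the line.

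Mbnl1 (ENSMUSG00000027763.13, chromosome 3, positions 60472830 to 60629750 on the plus strand of mm10) encodes the main muscleblind protein of adult muscle. It had 188 TPM in replicate 2 and 207 in replicate 1 (198 ± 13.5 TPM, mean ± SD, n = 2), from 20069 and 19962 expected counts. Mbnl2 (ENSMUSG00000022139.17, chromosome 14, positions 120275669 to 120431697, plus strand) encodes a close relative best known for its role in brain. It had 122 TPM in replicate 2 and 127 in replicate 1 (125 ± 3.40 TPM, n = 2). The 2 libraries therefore lay near each other for both genes. Mbnl1 made up 60.5% of the summed Mbnl TPM in replicate 2 and 61.9% in replicate 1, but 71.6% and 71.8% in the reads-based table.

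Mbnl3 (ENSMUSG00000036109.17, chromosome X, positions 51117269 to 51206532, minus strand) encodes the muscleblind protein known from placenta and immature muscle cells. It had 0.20 TPM in replicate 2 and 0.09 in replicate 1, from 13 and 10 expected counts, and its share of the Mbnl sum was 0.0644% and 0.0269% in the same order. At this depth its transcripts cannot be ranked: a different one led in each library.

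Muscleblind transcripts were a mixture of exon choices. For each internal exon, inclusion was estimated as the percentage of TPM from annotated transcripts that contain it, among those that contain or skip it, so it depends on the annotation and is not a count of junction reads. The 54-base exon of Mbnl1, which carries part of the signal that keeps the protein in the nucleus, had an inclusion of 41.0% in replicate 2 and 33.5% in replicate 1, and 34.1% and 34.3% in the reads-based table. Its 36-base exon had 58.0% in replicate 2 and 47.1% in replicate 1, and 54.1% and 53.1% reads-based. Intermediate inclusion of both was thus found by either quantification. Mbnl2 holds an exon of each length. Its 54-base exon had an inclusion of only 4.78% in replicate 2 and 4.91% in replicate 1, against 44.3% and 36.2% in the reads-based table. Its 36-base exon had 0% and 1.43%, against 11.4% and 10.02% reads-based. For Mbnl2 the quantifications were therefore farther apart than the libraries.

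The exons are shown because the muscleblind genes share them at equal length. The sequences are from GENCODE M21 transcripts on the coding strand, and capitals mark the bases that differ between Mbnl1 and Mbnl2. The 54-base exons (Mbnl1 chr3:60614683-60614736, Mbnl2 chr14:120395712-120395765, both plus strand) were identical at 46 of 54 bases, or 85.2%. The 36-base exons (Mbnl1 chr3:60621423-60621458, Mbnl2 chr14:120403336-120403371) were identical at 31 of 36 bases, or 86.1%. The 36-base exon of Mbnl3 (chrX:51126126-51126161, minus strand) was identical to that of Mbnl1 at 26 bases, or 72.2%, and its capitals mark the differences from Mbnl1.
Mbnl1 54-base exon: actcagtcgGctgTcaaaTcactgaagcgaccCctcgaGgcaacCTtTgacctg
Mbnl2 54-base exon: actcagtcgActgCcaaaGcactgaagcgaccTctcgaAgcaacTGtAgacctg
Mbnl1 36-base exon: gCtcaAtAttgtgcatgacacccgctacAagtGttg
Mbnl2 36-base exon: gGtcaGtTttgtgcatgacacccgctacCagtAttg
Mbnl3 36-base exon: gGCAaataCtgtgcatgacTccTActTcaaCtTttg

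Mbnl1 and Mbnl2 also share an exon of 95 bases farther downstream. In Mbnl1 its inclusion was 86.2% in replicate 2 and 81.7% in replicate 1, with the same values to within 1 point in the reads-based table (86.2% and 81.8%). In Mbnl2 it was 64.7% in replicate 2 and 64.3% in replicate 1, but 91.9% and 83.7% reads-based. The Mbnl2 value turned on a single transcript that skips the exon, Mbnl2-205, annotated without a reading frame. It held 34.1% of Mbnl2 TPM in replicate 2 and 34.8% in replicate 1, against 6.95% and 14.3% reads-based. The coding transcript Mbnl2-201, which contains the 54-base exon, held 2.99% and 1.68% of the TPM by alignment, and 39.6% and 29.5% reads-based.

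Mbnl1 was spread over many transcripts, and the leading one, the coding Mbnl1-201, held 23.1% of its TPM in replicate 2 and 20.4% in replicate 1. The coding Mbnl1-214 followed with 16.0% and 13.8%. In the reads-based table the short coding model Mbnl1-210 led, with 18.5% in replicate 2 and 24.0% in replicate 1, against 2.81% and 2.23% by alignment. By share of reads-based counts, which are not corrected for length, Mbnl1-210 held 1.97% in replicate 2 and 2.76% in replicate 1. Mbnl1-201 then led with 42.3% and 48.8%. The transcript Mbnl1-212, annotated without a reading frame, had 5.72 TPM in replicate 2 and 26.9 in replicate 1. It is the only annotated transcript with a 63-base exon, whose inclusion was 5.04% in replicate 2 and 19.0% in replicate 1, and 0.862% and 2.29% reads-based. A 154-base exon that it lacks had 94.8% and 78.5%, and 82.3% and 79.0% reads-based. The separation of the libraries at these exons was thus seen in the alignment-based table and was much smaller in the reads-based one.

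Celf2 (ENSMUSG00000002107.18, chromosome 2, positions 6539694 to 7509563, minus strand) had 25.6 TPM in replicate 2 and 40.9 in replicate 1 (33.3 ± 10.9 TPM, n = 2), from 3023 and 4473 expected counts. It encodes a CUG-binding splicing factor known from brain, heart and muscle. Celf1 (ENSMUSG00000005506.16, chromosome 2, positions 90940382 to 91019497, plus strand), whose protein opposes muscleblind proteins at many exons and also promotes mRNA decay, had 19.6 TPM in replicate 2 and 17.2 in replicate 1 (18.4 ± 1.70 TPM, n = 2). Celf2 was the higher of the pair in both libraries. It made up 56.6% of their sum in replicate 2 and 70.4% in replicate 1, and 63.2% and 75.6% in the reads-based table.

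The coding transcript Celf2-206 led in both libraries and both tables, with 38.0% of Celf2 TPM in replicate 2 and 33.0% in replicate 1. Second by alignment was Celf2-228, annotated as a target of nonsense-mediated decay, the pathway that destroys mRNAs with an early stop. It held 22.9% in replicate 2 and 22.2% in replicate 1, but 1.09% and 3.98% in the reads-based table. Celf2-228 is the only annotated transcript with a 41-base exon (chr2:6554280-6554320, minus strand), and the inclusion of that exon was 25.9% in replicate 2 and 26.0% in replicate 1, against 1.77% and 6.03% reads-based. The exon is shown whole because its length is no multiple of 3, so that it shifts the reading frame. A separate 144-base exon of Celf2 had an inclusion of 92.9% in replicate 2 and 88.8% in replicate 1, and 85.9% and 82.7% reads-based.
Celf2 41-base exon: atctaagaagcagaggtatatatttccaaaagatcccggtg

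Celf1 was led by the coding Celf1-201, with 29.8% of TPM in replicate 2 and 29.7% in replicate 1. By alignment, other coding transcripts changed places between libraries: Celf1-206 held 14.6% in replicate 2 and 2.62% in replicate 1, and Celf1-205 held 3.93% and 15.5%. For both transcripts the deposited lower and upper bounds of TPM overlapped between the libraries. Those of Celf1-206 were 1.16 and 4.74 TPM in replicate 2 and 9.02e-05 and 2.96 in replicate 1. Those of Celf1-205 were 1.03e-05 and 2.68 TPM in replicate 2 and 1.23e-06 and 3.76 in replicate 1. The exchange was not seen in the reads-based table. There Celf1-206 held 24.1% in replicate 2 and 18.0% in replicate 1, and Celf1-205 held 0.000262% and 1.04e-05%. Neither of the internal exons of 152 and 53 bases is annotated as coding over its full length. These exons had inclusions of 37.9% and 24.5% in replicate 2 and of 40.0% and 17.3% in replicate 1. In the reads-based table they had 34.0% and 17.2% in replicate 2 and 34.4% and 15.8% in replicate 1.

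Rbfox1 (ENSMUSG00000008658.16, chromosome 16, positions 5885355 to 7411526, plus strand) was the main Rbfox gene of the muscle. It had 76.3 TPM in replicate 2 and 96.4 in replicate 1 (86.3 ± 14.2 TPM, n = 2). Rbfox2 (ENSMUSG00000033565.18, chromosome 15, positions 77078990 to 77307004, minus strand), the more widely expressed of the pair, had 24.8 TPM in replicate 2 and 20.4 in replicate 1 (22.6 ± 3.13 TPM, n = 2). Rbfox1 made up 75.4% of their sum in replicate 2 and 82.5% in replicate 1, and 79.5% and 84.0% in the reads-based table. The third relative, Rbfox3, is a neuronal gene and had 0.01 TPM in replicate 2 and 0.06 in replicate 1.

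Rbfox1 and Rbfox2 each carry a pair of mutually exclusive exons after those for the RNA-binding domain, a 40-base one known as the brain type and a 43-base one known as the muscle type. In Rbfox1 the 43-base exon had an inclusion of 51.9% in replicate 2 and 49.5% in replicate 1, and 46.6% and 45.6% reads-based. Its 40-base exon had 48.1% in replicate 2 and 50.5% in replicate 1, and 53.4% and 54.4% reads-based. In Rbfox2 the 43-base exon had 37.6% in replicate 2 and 38.4% in replicate 1, and 38.4% and 39.7% reads-based. Its 40-base exon had 60.4% in replicate 2 and 58.3% in replicate 1, and 54.3% and 52.9% reads-based. Both exon types were thus assigned transcripts in both genes, and the 43-base type took a smaller share in Rbfox2 than in Rbfox1 in each library and each table. In Rbfox1 the split rested on a pair of coding transcripts: Rbfox1-201 with the 40-base exon had 36.4 TPM in replicate 2 and 48.2 in replicate 1, and Rbfox1-203 with the 43-base exon had 39.6 and 47.7 TPM. These are 3061 and 1407 bases long and so differ elsewhere too. By share of expected counts, which are not corrected for length, Rbfox1-201 had 67.4% in replicate 2 and 69.4% in replicate 1.

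The alternative exons are printed from GENCODE M21 on the coding strand, with capitals for the bases that differ between the genes. The 40-base exons (Rbfox1 chr16:7363865-7363904, Rbfox2 chr15:77094451-77094490) matched at 34 bases, or 85.0%. The 43-base exons (Rbfox1 chr16:7369801-7369843, Rbfox2 chr15:77091812-77091854) matched at 27 bases, or 62.8%, so the muscle-type exon was the less alike of the pair.
Rbfox1 40-base exon: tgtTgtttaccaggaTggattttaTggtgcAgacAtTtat
Rbfox2 40-base exon: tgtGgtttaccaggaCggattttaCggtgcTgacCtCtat
Rbfox1 43-base exon: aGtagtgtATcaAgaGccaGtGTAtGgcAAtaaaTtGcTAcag
Rbfox2 43-base exon: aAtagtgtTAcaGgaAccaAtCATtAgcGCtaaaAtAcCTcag

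Rbfox2 has a further 93-base exon within the RNA-binding domain, whose skipping is known to give a protein that no longer binds RNA and can interfere with the full form. Its inclusion was 65.1% in replicate 2 and 61.2% in replicate 1, and 62.1% and 60.1% reads-based. The skipping share came mostly from the coding transcript Rbfox2-207, which held 26.1% of Rbfox2 TPM in replicate 2 and 30.7% in replicate 1, and 34.9% and 35.6% reads-based. That transcript also contains the 43-base exon, so the inclusion values of these exons are not independent. By share of expected counts Rbfox2-207 held 7.76% in replicate 2 and 8.31% in replicate 1, since it is short at 1041 bases.

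Rbm24 (ENSMUSG00000038132.6, chromosome 13, positions 46418434 to 46431095, plus strand) had 70.7 TPM in replicate 2 and 75.5 in replicate 1 (73.1 ± 3.41 TPM, n = 2). Its single coding transcript, Rbm24-201, held 85.7% of the TPM in replicate 2 and 83.1% in replicate 1. In the reads-based table it held 86.1% and 67.6%, and the remainder went to the 391-base intron-retaining model Rbm24-203, with 37.2 reads-based counts in replicate 2 and 108 in replicate 1. A non-coding 113-base exon had an inclusion of 7.46% and 11.0% by alignment and 0% in both libraries reads-based. Its closest relative, Rbm38, which also binds RNA in differentiating muscle cells, had 70.5 TPM in replicate 2 and 63.0 in replicate 1.

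Rbm20 (ENSMUSG00000043639.15, chromosome 19, positions 53677306 to 53867080, plus strand) had 32.9 TPM in replicate 2 and 30.8 in replicate 1 (31.8 ± 1.44 TPM, n = 2). It has 3 annotated transcripts, and all were found in both libraries. The full-length coding Rbm20-203 had 12.4 TPM in replicate 2 and 10.2 in replicate 1, and the short coding model Rbm20-202 had 10.6 and 10.6 TPM. Rbm20-201, annotated as a target of nonsense-mediated decay, had 9.87 TPM in replicate 2 and 10.1 in replicate 1. These were 30.0% and 32.6% of the gene, and 34.7% and 35.2% in the reads-based table. Unlike the decay transcript of Celf2, this one was thus given near the same share by both quantifications. It contains an internal 46-base exon that Rbm20-203 lacks (chr19:53852354-53852399, plus strand), printed here whole, which had an inclusion of 44.3% in replicate 2 and 49.6% in replicate 1, and 41.3% and 45.9% reads-based.
Rbm20 46-base exon: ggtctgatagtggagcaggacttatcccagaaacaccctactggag

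Ptbp1 (ENSMUSG00000006498.16, chromosome 10, positions 79854427 to 79864771, plus strand) was the lowest of the detected regulators. It had 6.75 TPM in replicate 2 and 7.03 in replicate 1 (6.89 ± 0.198 TPM, n = 2), from 430 and 403 expected counts. Its relatives were in the same range: Ptbp2, best known from neurons, had 8.27 TPM in replicate 2 and 8.67 in replicate 1, and Ptbp3 had 3.67 and 3.21 TPM. Ptbp1 protein lowers its own mRNA by causing a 34-base exon to be skipped, which shifts the reading frame and exposes the transcript to decay. That exon (chr10:79862014-79862047, plus strand) is printed for this reason. Its inclusion was 85.5% in replicate 2 and 84.3% in replicate 1, and 84.9% and 83.8% reads-based, so all 4 values lay close together. A 78-base exon that lengthens the linker between RNA-binding domains had an inclusion of 52.6% in replicate 2 and 64.3% in replicate 1, against 70.2% and 71.9% reads-based. The counts behind these shares were low: the leading coding transcript Ptbp1-216 had 144 expected counts in replicate 2 and 192 in replicate 1. Genes on the opposite strand overlap Ptbp1, of which E130317F20Rik had 59 counts in replicate 2 and 52 in replicate 1 and Plppr3 had 2 and 7.
Ptbp1 34-base exon: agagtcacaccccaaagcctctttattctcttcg

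The libraries were next set against each other by counts scaled with TMM, a method that equalises the bulk of genes. A gene was compared where its mean count reached 100, which 9 of the 10 regulators met, and a gene was called apart when its counts differed by more than 1.5-fold. Of all 9996 such genes, 8.96% were apart, and of the 9 regulators 1 was, Celf2. Its log2 ratio of replicate 2 over replicate 1 was -0.63, that is 1.55-fold lower in replicate 2, with an exact 95% counting interval of 1.48 to 1.63. Rbfox1 was next at -0.35. The other 7 lay between -0.06 for Mbnl1 and 0.16 for Rbfox2, with Rbm20 at 0.15. The median log2 ratio was -0.04 over the 9 regulators and -0.01 over all genes compared. In the reads-based table Celf2 stood at -0.60. Scaled to spike-in RNA instead, all log2 ratios move up by 0.39, and Celf2 then stood at -0.24, so its call depends on the scaling. Both of its leading transcripts were lower in replicate 2: Celf2-206 had 9.72 TPM in replicate 2 and 13.5 in replicate 1, and Celf2-228 had 5.85 and 9.10 TPM. The marker sums given above for red blood cells, fat cells and Schwann cells were also lower in replicate 2. The 6 muscle fibre markers had a median log2 ratio of -0.46. They include Mylpf, a fast myosin light chain gene, at -0.62 and Tnnt3, the fast troponin T, at -0.41. None of them is on the slow-fibre list. All 7 genes of that list went the other way, from 4.06 for Atp2a2 up to 12.2 for Myl3. Lymphocyte markers, at 5.01 TPM in replicate 2 and 0.25 in replicate 1, were higher in replicate 2, and endothelial markers summed to 41.6 and 35.5 TPM. Heart markers summed to 99.4 TPM in replicate 2 and 3.69 in replicate 1, but Myh6 alone had 96.6 and 0.17 TPM. Only 1 of the 9 heart markers was detected in both libraries, Myl4, which had 2.50 TPM in replicate 2 and 3.51 in replicate 1. The part of these cells and fibres in the Celf2 value was not tested.

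**Figure D2:**
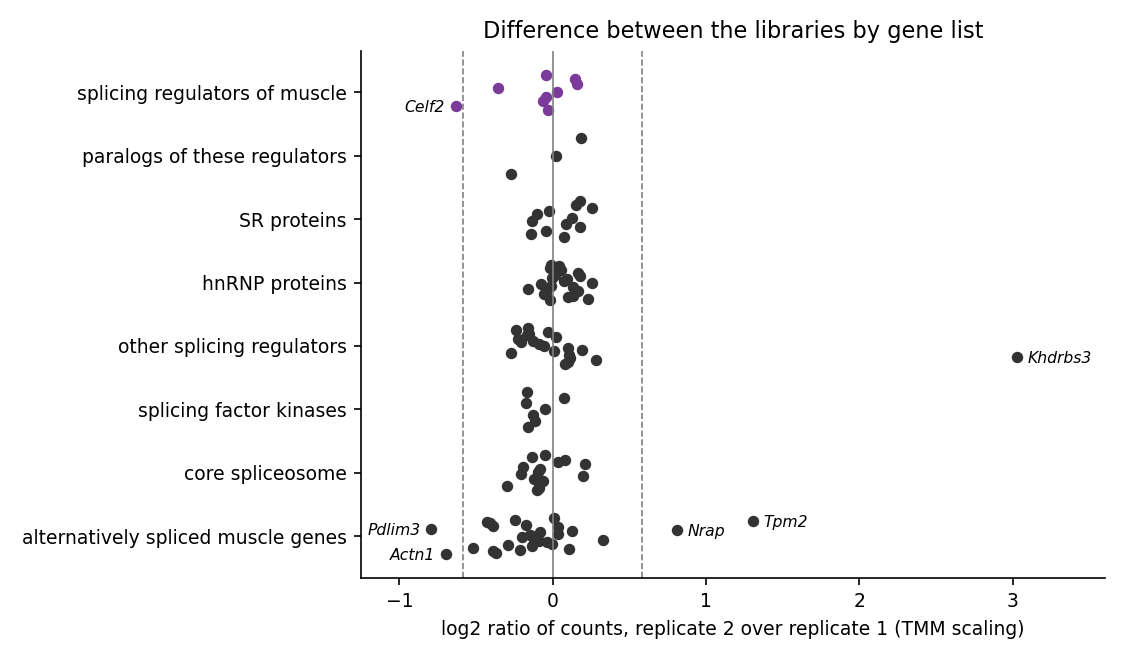
Log2 ratio of TMM-scaled counts, replicate 2 over replicate 1, for each gene of the 8 lists shown whose mean count reached 100, 1 point per gene. Dashed lines mark 1.5-fold in either direction and the genes shown beyond them are named; 1 alternatively spliced muscle gene is left out of the plot. Celf2 at -0.63 is the 1 regulator past a line, and Khdrbs3 is the farthest point shown at 3.03.

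The rest of the splicing machinery was read from lists of other factors. Among 95 further splicing factors with a row, 80 were detected and 82 compared, and 1 was apart, against 8.96% of all genes. That gene was Khdrbs3, an RNA-binding protein of the STAR family, with 8.01 TPM in replicate 2 and 0.79 in replicate 1, from 371 and 43 expected counts. Its log2 ratio was 3.03. It was higher in the library with high slow-fibre markers, and the part of those fibres was not tested. Qki is not analysed here. Highest and lowest genes of these lists are named by mean TPM of the alignment-based tables.

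All 23 hnRNP genes, which encode abundant nuclear RNA-binding proteins, were detected. Pcbp2 was highest at 161 TPM in replicate 2 and 154 in replicate 1, followed by Hnrnpa2b1 at 122 and 116 TPM, while Hnrnpll was lowest at 5.83 and 6.02 TPM. Mbnl1 thus exceeded each hnRNP gene of the list in TPM in both libraries by alignment. Of 13 SR protein genes, whose products promote exon use, 12 were detected. Srsf5 had 46.8 TPM in replicate 2 and 41.8 in replicate 1, Srsf2 had 31.4 and 27.4 TPM, and Srsf12 was listed at 0 in both libraries by alignment.

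All 16 core spliceosome genes and all 7 genes for kinases that phosphorylate SR proteins were detected, and none was apart by TMM-scaled counts. Snrpb, a shared protein of the snRNPs, had 51.4 TPM in replicate 2 and 50.9 in replicate 1, Sf1, which recognises the branch point, had 33.1 and 36.8 TPM, and Prpf3 was lowest by mean at 4.91 and 6.06 TPM. Clk4 led the kinases by mean, with 20.3 TPM in replicate 2 and 18.0 in replicate 1. Srpk3, a kinase known to be muscle-specific, had 17.1 and 18.9 TPM and was above Clk4 in replicate 1, and Clk2 was lowest at 6.48 and 7.61 TPM. Among 28 other regulators 19 were detected. Srrm2 led with 74.1 TPM in replicate 2 and 81.7 in replicate 1, Tardbp had 45.6 and 46.2 TPM, and the epithelial regulator Esrp1 had 0.03 and 0.02 TPM. Of the 8 paralogs of the regulators, 3 were detected, namely Rbm38, Ptbp2 and Ptbp3, while Celf3 and Celf6 were listed at 0 in both libraries by alignment.

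Coding transcripts took most of the TPM of each detected regulator, except Ptbp1 in replicate 1. The coding share was 100% in both libraries for Rbfox1. It was 75.5% in replicate 2 and 65.8% in replicate 1 for Mbnl1, 62.6% and 62.6% for Mbnl2, 76.9% and 83.7% for Celf1, and 73.3% and 70.5% for Celf2. It was 70.0% in replicate 2 and 67.4% in replicate 1 for Rbm20, 85.7% and 83.1% for Rbm24, and 75.8% and 84.1% for Rbfox2. For Ptbp1 it was 57.6% in replicate 2 and 46.9% in replicate 1, with 25.3% and 31.3% on transcripts that retain an intron and 9.33% and 18.8% on decay targets. In the reads-based table the Ptbp1 coding share was 77.8% and 73.9%. The reads-based coding share was also above the alignment-based one for Rbfox2, at 98.0% in both libraries, for Mbnl2, at 89.3% and 82.7%, and for Celf2, at 85.4% and 87.3%. By expected counts, which are not corrected for length, the coding share of Rbfox2 was 97.4% in replicate 2 and 98.5% in replicate 1. It was also higher than by TPM for Rbm24 (98.3% and 97.9%), Celf1 (97.9% and 98.8%), Mbnl1 (90.2% and 88.5%), Celf2 (84.5% and 82.1%) and Ptbp1 (65.5% and 64.4%). It was lower for Mbnl2 (57.6% and 57.8%) and Rbm20 (58.4% and 53.5%).

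**Figure D3:**
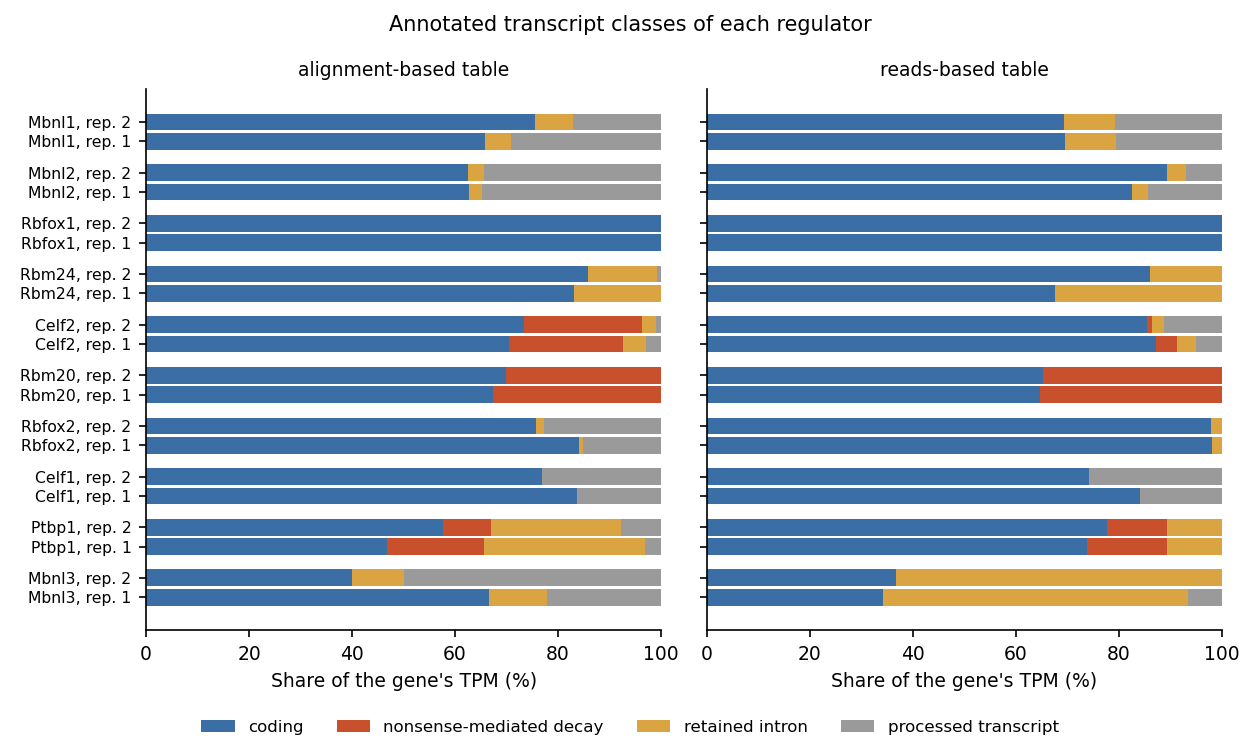
Share of each regulator's TPM by annotated transcript class, with alignment-based values on the left, reads-based values on the right, and replicate 2 above replicate 1. Rbm20 has decay shares of 30.0% to 35.2% in all 4 bars, whereas that of Celf2 is 22.9% and 22.2% by alignment and 1.09% and 3.98% reads-based.

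The transcript with the highest TPM was the same in both libraries for 6 of the 10 regulators by alignment and for 9 in the reads-based table, and it was the same in both libraries and both tables for 4, which are Celf1, Celf2, Rbm24 and Ptbp1. Ranked by expected counts in place of TPM, it was the same in both libraries for all 10. The regulators that changed leaders had near ties, as in Rbfox1 with Rbfox1-203 at 51.9% in replicate 2 and Rbfox1-201 at 50.04% in replicate 1, or very few counts, as in Mbnl3.

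Exon choice was then compared between the libraries. Inclusion was set side by side for internal exons of up to 300 bases with a mean inclusion of 5% to 95%, where transcripts that include or skip the exon held at least 25% of the gene's TPM. Of 7029 such exons in all genes compared, 32.6% were over 10 percentage points apart between the libraries. The regulators held 19 such exons, and 4 were over 10 points apart: the 36-base, 63-base and 154-base exons of Mbnl1 and the 78-base exon of Ptbp1. By the reads-based values, 0 of the 19 and 25.7% of the 7029 were. The median difference between libraries was 3.85 points over the 19 exons and 5.81 points over all 7029. Several of these exons share transcripts within a gene, so they are not independent.

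Between the 2 quantifications, 38.2% of the 7029 exons were over 10 points apart in mean inclusion, and so were 4 of the 19 exons of the regulators. These were the 63-base exon of Mbnl1, the 95-base exon of Mbnl2, the 41-base exon of Celf2 and the 78-base exon of Ptbp1. The median difference was 4.55 points over the 19 exons and 7.48 points over all. The limits on inclusion were set on the alignment-based values, which leaves out exons that the tables place apart, such as the 54-base exon of Mbnl2. With a mean inclusion of 5% to 95% in either table, 25 exons of the regulators were compared and 9 were over 10 points apart, or 36.0%, against 42.1% of 9230 exons in all genes. Of the exons so added, 4 belong to Mbnl1, among them a 111-base exon at 3.49% in replicate 2 and 2.79% in replicate 1, and at 23.5% and 30.3% reads-based. The short model Mbnl1-210 is the only annotated transcript with that exon. The mutually exclusive exons of Rbfox1 and Rbfox2, the 93-base exon of Rbfox2, the 46-base exon of Rbm20 and the 34-base exon of Ptbp1 stayed within 10 points in both comparisons.

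**Figure D4:**
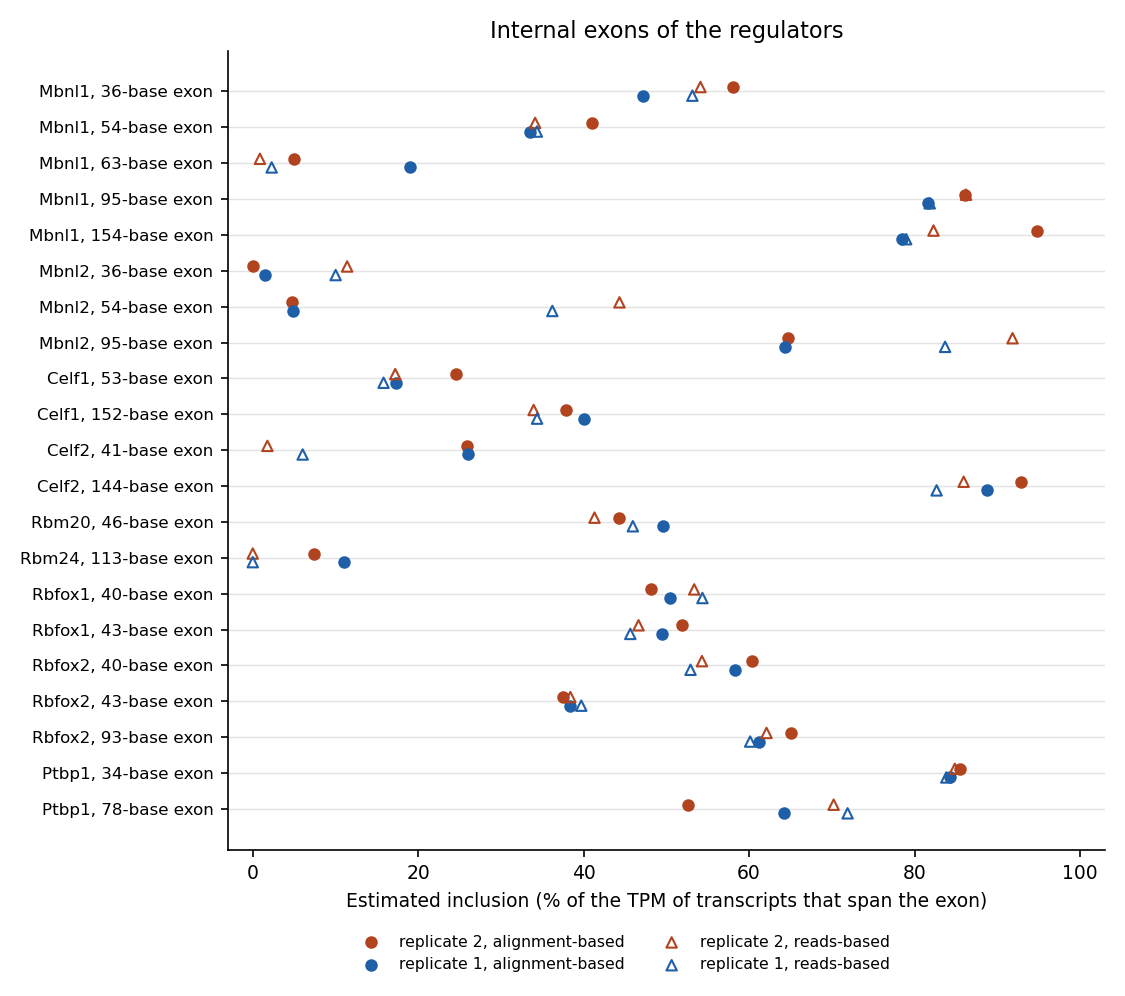
Estimated inclusion in percent for the 19 exons compared and for the 36-base and 54-base exons of Mbnl2, grouped by gene. Filled circles are alignment-based, open triangles reads-based, orange replicate 2 and blue replicate 1. Points of the Rbfox exons cluster tightly, while the 54-base exon of Mbnl2 lies at 4.78% and 4.91% by alignment and at 44.3% and 36.2% reads-based.

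The genes whose exons these proteins regulate were examined in the same libraries. All 30 alternatively spliced muscle genes on the list were detected, and 5 of them were over 1.5-fold apart, against 8.96% of all genes. The highest by mean TPM were Tnnt3, the fast troponin T, with 12783 TPM in replicate 2 and 17113 in replicate 1, Tpm1 with 10307 and 13994 TPM, and the calcium pump gene Atp2a1 with 9491 and 12302 TPM. Titin, encoded by Ttn, had 2935 TPM in replicate 2 and 2764 in replicate 1, and nebulin, encoded by Neb, had 2503 and 2616 TPM. Among those apart, Tpm2 had 2968 TPM in replicate 2 and 1290 in replicate 1, with a log2 ratio of 1.30. Nrap was also higher in replicate 2, at a log2 ratio of 0.81, while Pdlim3 at -0.79 and Actn1 at -0.70 were lower. With spike-in scaling Pdlim3 and Actn1 were no longer apart and Insr was, so that 4 genes were higher in replicate 2 and 0 lower, in place of 3 and 2. The libraries also differed in slow-fibre markers, as given above, and the part of that difference here was not tested.

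Exons of these genes that are known as regulated in muscle showed a wide range of inclusion. The 42-base exon of Atp2a1, used in adult muscle and skipped in myotonic dystrophy, was included at 99.7% in replicate 2 and 99.9% in replicate 1. The upstream 79-base exon of the chloride channel gene Clcn1, present in annotated decay targets alone, was included at 3.23% in replicate 2 and 2.22% in replicate 1, and at 7.93% and 7.76% reads-based. The 57-base exon of Cacna1s was included at 99.7% and 100%, and at 94.8% and 95.6% reads-based. These 3 exons thus lay close to full use or full skipping in both libraries. The 105-base exon of Clcn1 was intermediate, at a mean of 60.2% by alignment and 61.1% reads-based. Its skipping share came from a single transcript, Clcn1-202, which is annotated without a reading frame. The 36-base exon of the insulin receptor gene Insr was included at 17.1% in replicate 2 and 11.3% in replicate 1, and at 21.8% and 12.5% reads-based. The 123-base exon of Nfix had 52.4% in replicate 2 and 49.3% in replicate 1, but 70.9% and 69.0% reads-based.

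Of the myogenic factor gene Mef2d, the 135-base exon was included at 28.8% in replicate 2 and 27.5% in replicate 1, and its mutually exclusive 138-base partner at 71.2% and 72.5%. The reads-based values of the 135-base exon were 29.8% and 27.5%. The 21-base exon of Mef2d had 15.1% in replicate 2 and 13.8% in replicate 1. The mutually exclusive 167-base exons of Pkm, the pyruvate kinase gene and a classic target of Ptbp1 repression, were given near equal shares, an estimate from 1 annotated transcript for each exon that was not checked on junction reads. The upstream exon, known as the one of the M1 enzyme of adult muscle, had 57.0% in replicate 2 and 55.9% in replicate 1, and 50.8% and 48.8% reads-based. Of the 76-base pair of Tpm1, the downstream exon was included at 99.3% and 99.2% and the upstream one at 0.528% and 0.622%, against 93.6% and 92.5% and 6.28% and 7.27% reads-based. The 42-base exon of Camk2d was included at 58.3% in replicate 2 and 48.2% in replicate 1, and at 73.5% and 63.1% reads-based. By alignment its libraries were 10.04 points apart, and 32.6% of all exons compared were over 10 points apart. The 81-base exon of Fxr1 had 67.9% and 68.6%, and the 15-base exon of Ldb3 had 95.7% and 96.2%. With 1 tissue and 1 age, no relation between the level of a regulator and the inclusion of a target exon could be tested.

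Over the whole list, 221 exons of 24 genes could be compared in the same way, and 50 of them, or 22.6%, were over 10 points apart between the libraries, against 32.6% of all exons. Between the quantifications 104, or 47.1%, were, against 38.2% of all exons. Many of these exons belong to a few long genes and share transcripts, and the exons of all genes were not matched to them in count.

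**Figure D5:**
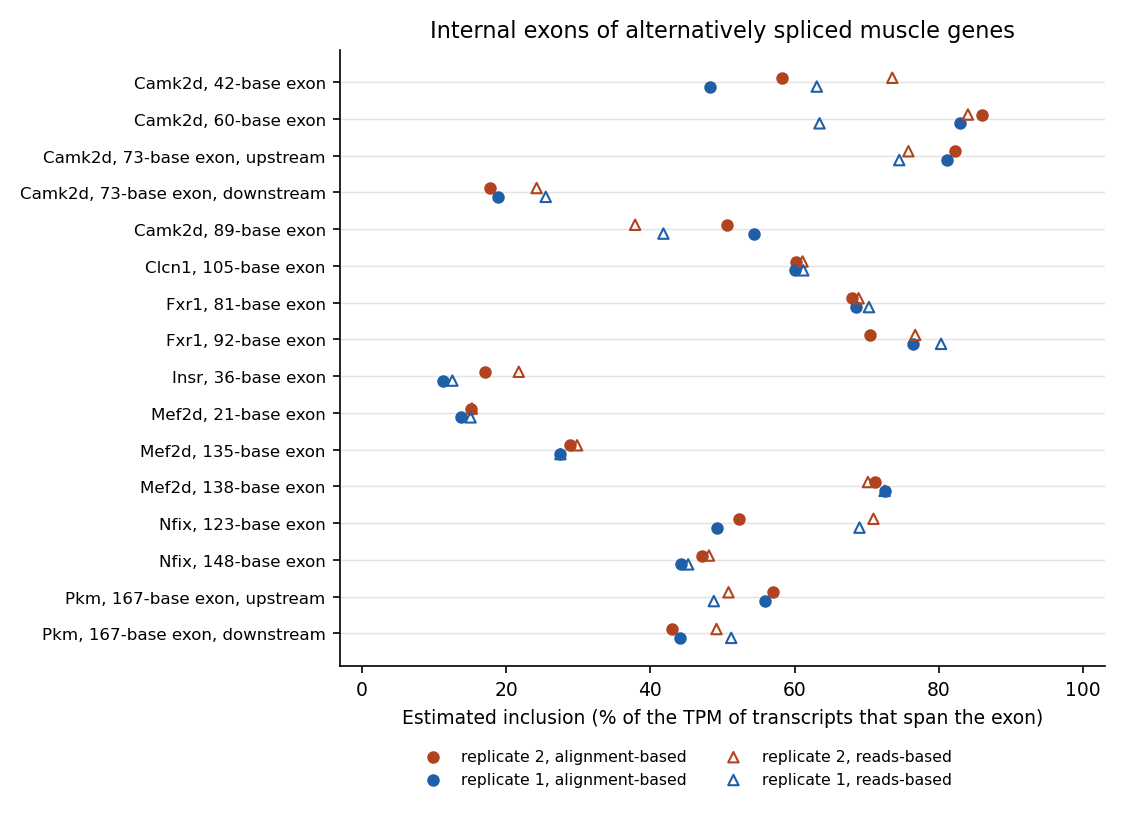
Estimated inclusion in percent for the 16 exons with a mean inclusion of 5% to 95% in the alternatively spliced muscle genes named here, with symbols as in the plot of the regulators' exons. Upstream and downstream give the order of transcription where a gene has a pair of equal length. The Mef2d exons lie within a few points in all 4 values, while the 42-base exon of Camk2d spans 48.2% to 73.5%.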

How the data were processed

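Total RNA of 2 libraries, 1 group, was analysed. The authors deposited a gene table and a transcript table derived from alignments, with expected counts and TPM, and a transcript table derived directly from reads, with estimated counts and TPM, on mm10 and GENCODE M21, as the deposited descriptions say. For the quantification programs, names and versions are not given in the sources used. The deposited posterior SD of the gene count is a score of uncertainty in read assignment to genes. It was 0 for every regulator except Ptbp1, with 0.14 in replicate 2 and 0.18 in replicate 1. This score does not cover how reads are shared among the transcripts of a gene. Deposited lower and upper bounds of TPM, of a level not stated, were wide for some transcripts. For Mbnl1-212 they were 0.424 and 10.5 TPM in replicate 2 and 15.9 and 30.6 in replicate 1. Symbols came from the transcript identifiers of the reads-based table; 86 genes absent there were named from the annotation. The mice carry castaneus alleles, and the effect on alignment to mm10 was not tested.

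Spike-in and tRNA rows were left out of library sizes. Expected counts were rounded for the scaling factors. Log2 ratios used (count + 0.5) scaled by TMM in edgeR 4.0.16 (R 4.3.3), with DESeq2 1.42.0 size factors as an alternative. Other steps used Python 3.11.15. Ratio intervals are Clopper-Pearson exact intervals at 95% and cover counting error only. The ratio step was tested on simulated data. With 2 libraries in 1 group there is no test. Exon inclusion and its sequences came from the annotated exons of GENCODE M21.

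The regulators and gene lists were chosen with earlier results of these data known. The exon measure, its thresholds and the exons named were chosen after values were seen. Named were all regulators with their transcripts of at least 10% of TPM where results turn on them, the 2 highest and the lowest gene of each other list, the 5 highest spliced muscle genes, and the genes apart, except that 1 of the spliced muscle genes is counted in its list but its values are not reported here.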

Additional observations from a re-analysis of the deposited data

How the results depend on the processing

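The count of detected regulators stayed at 9 of 10 at 0.5 or 5 TPM, in the reads-based table and in each library alone (lowest and highest 9). Regulators over 1.5-fold apart numbered 1, and 0 with spike-in scaling or at 2-fold. Other splicing factors apart numbered 1, but 7 with spike-in scaling, 7 without a filter on low counts and 2 at a mean count of at least 10. Alternatively spliced muscle genes apart numbered 5 (3 higher and 2 lower in replicate 2), but 2 at 2-fold, 4 with spike-in scaling (all higher: Pdlim3 and Actn1 lost, Insr gained) and 6 by deposited TPM (Camk2d gained). Spike-in scaling puts 23.7% of all genes over 1.5-fold apart. The leading transcript was the same in both libraries for 6 regulators by TPM and for 10 by counts. Exons of the regulators over 10 points apart between libraries numbered 4, but 0 in the reads-based table, 0 at 20 points and 1 where at least 50% of TPM bore on the exon. Between quantifications they numbered 4, but 2 at 20 points and 9 with intermediate inclusion in either table. These exon settings were chosen after seeing the data. For settings that change the scaling, threshold or filter the change follows from the setting; for the reads-based table the cause was not tested. Among single values, the log2 ratio of Celf2 was -0.24 with spike-in scaling, that of Mbnl3 was 0.69 with it and 1.15 by TPM, all 10 mean TPM values moved by more than 1 SD in the reads-based table, and 15 coding shares did so there or by counts. No paired analysis was possible because there is 1 group. With 2 libraries, low counts limit Mbnl3 and the transcripts of Ptbp1.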
